A study of Mus musculus with 2 samples.

Results

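Intergenic boundaries far from coding genes were the subject of this description: 1291 of the 7435 chromatin boundaries deposited for mature olfactory sensory neurons that express the odorant receptor gene Olfr16. They were taken from the 7035 boundaries on chromosomes 1 to 19. A boundary was included when its midpoint lay in no protein-coding gene and 100 kb or more from every protein-coding gene start of GENCODE M21, and when no lincRNA or antisense gene started within 10 kb of its 5 kb interval. The rule used positions and annotation only, so the strength of each boundary and the sequence in it were not part of the choice. Adult mice carrying MOR23-GFP (MOR23 is another name of Olfr16) gave the olfactory epithelium, from which the labelled neurons were isolated by cell sorting, with both sexes mixed, the strain not specified and no treatment. In situ Hi-C, a sequencing assay of which pieces of the genome touch each other inside the nucleus, was run with DpnII on 28000 cells in replicate 1 and 24400 cells in replicate 2. The 2 replicates form 1 group with no control, and the authors called boundaries once, on both combined.

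A boundary separates neighbouring stretches of a chromosome that each have many internal contacts. In mammals many boundaries are held by the insulator protein CTCF together with the cohesin ring, which is thought to extrude DNA loops until it meets CTCF bound in a facing orientation. Others lie at active gene starts. Boundaries in gene-poor sequence have no coding gene start beside them. Such gene deserts often lie next to genes of development and of neuronal adhesion, and many of them belong to the inactive, AT-rich part of the genome. Of each boundary the list gives a position, a class (Weak or Strong) and the authors' strength score, whose formula is not given in the sources used here. The Strong class begins at a score of 0.5, and Weak boundaries lie below it. No boundary in the list scores below 0.2, so weaker ones, if any, are not counted here. The list holds no replicate values and no depth. Shares below carry exact 95% intervals (Clopper-Pearson) that cover counting error only, neighbouring regions are not independent, and no test between groups of animals was possible.

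The sequences below show where the consensus of CTCF lay inside intergenic boundaries. They come from 8 of the highest-scored of these boundaries that had an exact match inside the 5 kb interval. Each is read from the GRCm38 reference 5′ to 3′ on the strand of the match, with the match in capitals, and carries the name of the nearest coding gene start.
Kcnmb2 (chr3:31769350-31769409, + strand): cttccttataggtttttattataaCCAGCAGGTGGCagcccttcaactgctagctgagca
Kcnj2 (chr11:111537818-111537877, + strand): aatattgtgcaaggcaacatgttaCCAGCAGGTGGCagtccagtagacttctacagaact
Kbtbd8 (chr6:94985314-94985373, + strand): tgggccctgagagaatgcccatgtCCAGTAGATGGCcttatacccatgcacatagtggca
Zfp536 (chr7:37360321-37360380, - strand): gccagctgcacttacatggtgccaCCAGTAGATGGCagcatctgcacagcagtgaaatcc
Gm28710 (chr5:16932714-16932773, - strand): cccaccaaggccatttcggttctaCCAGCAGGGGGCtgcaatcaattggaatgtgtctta
Galnt17 (chr5:130853554-130853613, - strand): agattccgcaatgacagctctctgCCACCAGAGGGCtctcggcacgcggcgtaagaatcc
Manea (chr4:26544037-26544096, - strand): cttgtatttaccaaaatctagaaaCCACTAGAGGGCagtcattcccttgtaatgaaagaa
Zpld1 (chr16:55469261-55469320, - strand): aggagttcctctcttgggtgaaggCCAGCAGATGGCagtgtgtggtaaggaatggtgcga

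All 8 are intergenic. The boundaries that hold them scored from 2.29 (Kcnmb2) to 1.40 (Zpld1), all of them Strong because they were picked by score. Of all 38 intergenic boundaries with a match inside, 20 were Strong and 18 Weak. The match near Kcnj2 lay 0.347 kb from the midpoint of its boundary and the one near Gm28710 0.243 kb, while the other 6 lay from 1.08 to 2.16 kb away. The farthest boundary from any coding start with a match inside, 817 kb from the start of Ghitm, a gene of the inner mitochondrial membrane, was Weak with a score of 0.325. Its match is shown for contrast.
Ghitm (chr14:37950406-37950465, - strand): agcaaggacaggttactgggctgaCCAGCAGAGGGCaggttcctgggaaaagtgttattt

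Boundaries were sparser in gene-poor sequence than in the rest of the autosomes, and the difference lay in the Strong class. Sequence that meets the same rule, counted as every 5 kb bin of the same grid that holds no unknown base, covered 703 Mb, 29.4% of the autosomal sequence so counted. It held 1.84 boundaries per Mb, against 3.40 per Mb in the rest of the autosomes. Within that rest, sequence inside coding genes and 100 kb or more from every start held 1.75 per Mb. A low density was therefore not particular to intergenic sequence. Split by class, Strong boundaries numbered 0.419 per Mb in gene-poor sequence and 2.03 per Mb elsewhere. Weak boundaries were about as frequent in both, at 1.42 and 1.36 per Mb. These counts depend on the lower limit of the list. Scores of 0.2 to 0.3 made up 50.6% of intergenic boundaries and 17.9% of the others. The density in gene-poor sequence was below that of the remaining sequence on 19 of 19 autosomes, and ranged from 1.08 per Mb on chromosome 7 to 2.31 per Mb on chromosome 6. Chromosome 1 held the most intergenic boundaries, 128, and chromosome 19 the fewest, 16.

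Most intergenic boundaries were Weak. The Strong class took 295 of 1291, 22.9% (exact 95% interval 20.6 to 25.2%), where it took 53.1% of all autosomal boundaries and 59.9% of the 5744 autosomal boundaries outside the group (58.6 to 61.1%). The median score was 0.299 (quartiles 0.238 and 0.463) against 0.622 (0.355 and 1.06) outside. Boundaries with a coding start within 10 kb stood at the other end, with 64.1% Strong of 2004 and a median score of 0.687. Those inside coding genes and away from starts had 53.0% Strong of 1740. On each of the 19 autosomes the Strong share and the median score were lower among intergenic boundaries than among the others. The Strong share by chromosome ran from 8.97% on chromosome 8 (7 of 78, exact 95% interval 3.68 to 17.6%) to 32.4% on chromosome 5 (24 of 74, 22.0 to 44.3%). A score of 1 or more was reached by 130 intergenic boundaries, 10.1%, and by 27.6% of the others.

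**Figure D1:**
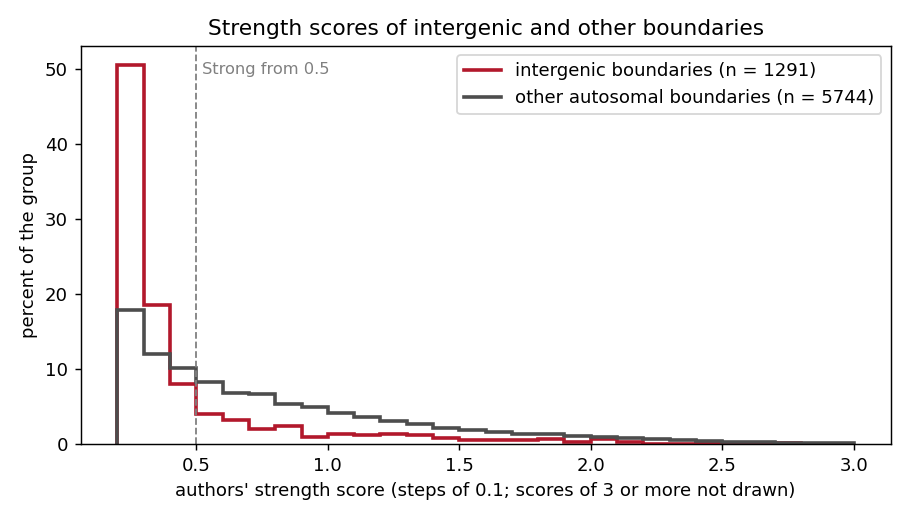
Distribution of the authors' strength score in steps of 0.1, as percent of each group, for 1291 intergenic boundaries and 5744 other autosomal boundaries. The dashed line marks the score of 0.5 from which boundaries are Strong. The intergenic curve peaks in the lowest step, which begins at the lower limit of the list, 0.2. The intergenic median, 0.299, lies below that of the others, 0.622.

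Even among these remote boundaries, those farther from coding genes were less often Strong. Between 100 and 200 kb from the nearest coding start, 159 of 361 boundaries were Strong, 44.04% (exact 95% interval 38.9 to 49.3%). From 200 to 500 kb the share was 20.2% (97 of 481), from 500 to 1000 kb 10.7% (31 of 289), and beyond 1000 kb 5% (8 of 160, interval 2.18 to 9.61%). The intervals of the first 3 bands did not overlap, and those of the last 2 did. Per Mb of gene-poor sequence, Strong boundaries numbered 0.838, 0.354, 0.193 and 0.102 in these bands, and Weak ones 1.07, 1.40, 1.60 and 1.94. The total density therefore hardly differed, at 1.90, 1.75, 1.80 and 2.04 per Mb. Across the 1291 boundaries, Spearman's rho between score and distance was -0.32. GC content moved with both, with rho 0.30 against the score and -0.46 against the distance, and its part in the relation was not tested.

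**Figure D2:**
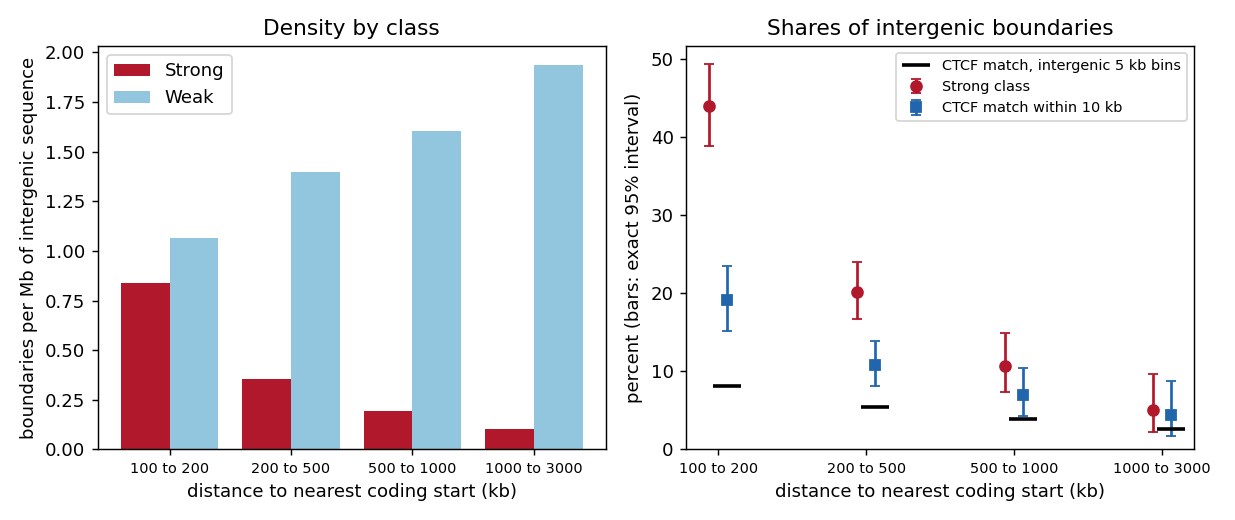
Left, Strong and Weak intergenic boundaries per Mb of gene-poor sequence in 4 bands of distance to the nearest coding start. Right, percent of boundaries in the Strong class and percent with a CTCF consensus match within 10 kb, with exact 95% intervals, and black dashes for the match share of all gene-poor 5 kb bins. Strong boundaries went from 0.838 to 0.102 per Mb and Weak ones from 1.07 to 1.94 per Mb between the nearest and the farthest band.

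Boundaries inside long coding genes were set beside them at equal distance from a gene start. Of 251 boundaries inside a coding gene and 100 to 200 kb from every start, 40.6% were Strong (exact 95% interval 34.5 to 47.0%), and the intergenic share in that band, 44.04%, lies inside this interval. From 200 to 500 kb the genic share was 32.6% of 187 (26.0 to 39.8%) against 20.2% in intergenic sequence (16.7 to 24.03%). Genic boundaries of that band also had the higher median GC content, 40.6% against 38.8%. From 500 to 1000 kb the shares were 13.2% of 53 and 10.7% of 289, with overlapping intervals.

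Composition differed as well. The median GC content of the 5 kb intervals was 38.7% (quartiles 36.7 and 41.5%) against 43.8% in other autosomal boundaries. The bins of gene-poor sequence had a median of 39.0%, so intergenic boundaries resembled the sequence around them in this measure. Strong intergenic boundaries had a median of 41.5% and Weak ones 38.1%. Soft-masked (repetitive) bases of the reference made up a median of 32.2% of intergenic boundaries, 31.6% of gene-poor bins and 26.4% of other boundaries. Of the intergenic boundaries, 94 were soft-masked over at least 80% of their length (7.28%, exact 95% interval 5.92 to 8.84%), where gene-poor bins gave 8.59%.

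Split into classes of GC content, intergenic boundaries were less often Strong than others in each class. The lowest and highest classes are open-ended, and distance to coding starts was not matched. The part of GC in the lower Strong share was not tested. Below 36% GC, 9.32% of 236 intergenic boundaries and 30.9% of 162 others were Strong. Between 40 and 42% GC the shares were 31.1% of 180 (exact 95% interval 24.4 to 38.4%) and 58.2% of 831 (54.8 to 61.6%). At 44% GC or more they were 52.3% of 149 (44.02 to 60.6%) and 65.4% of 2792 (63.6 to 67.2%). The intervals of both groups were apart in each of the 6 classes, and the gap was smallest in the class richest in GC.

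**Figure D3:**
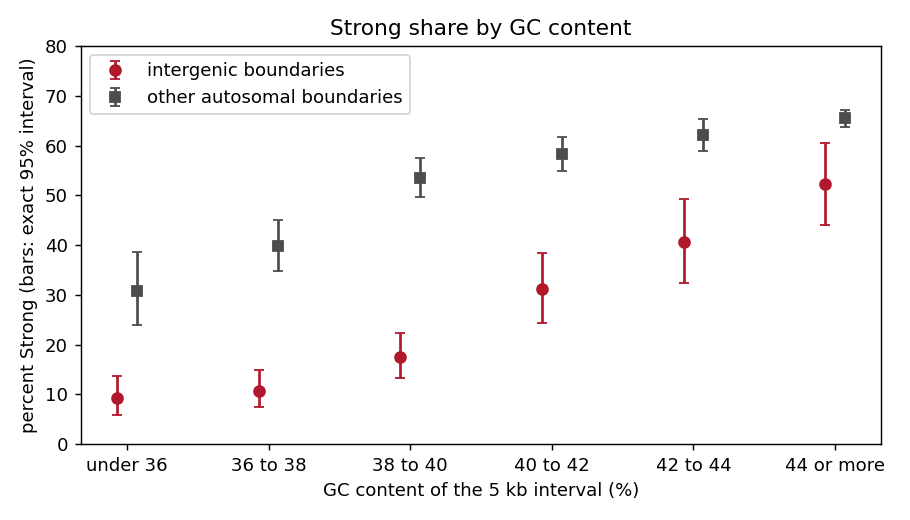
Percent of boundaries in the Strong class by GC content of the 5 kb interval, for intergenic and other autosomal boundaries, with exact 95% intervals. Intergenic boundaries lie lower in each of the 6 classes, from 9.32% against 30.9% below 36% GC to 52.3% against 65.4% at 44% or more.

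CTCF consensus matches lay near intergenic boundaries more often than in gene-poor sequence at large. The 12-letter consensus of CTCF was searched on both strands without mismatch. A match lay within 10 kb of 148 of 1291 intergenic boundaries, 11.5% (exact 95% interval 9.78 to 13.3%), where 5.46% of gene-poor bins had one. Among these, 128 boundaries had 1 match, 19 had 2 and 1 had 3. Inside the 5 kb interval itself, 38 boundaries held a match (2.94%, interval 2.09 to 4.02%), against 1.14% of gene-poor bins. The share was higher than in the gene-poor bins of the same chromosome on 17 of 19 autosomes, and chromosome 17 had no match near any of its 33 intergenic boundaries, which allows a share of up to 9.09% by the floor of 3 counts and 10.6% by the exact interval.

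In absolute terms such matches were uncommon. The 10 kb share of 11.5% was below the 26.8% of other autosomal boundaries (interval 25.6 to 27.9%) and below the 24% of all autosomal boundaries, and close to the 11.3% of all autosomal bins. The backgrounds differed too, since 13.7% of autosomal bins outside gene-poor sequence had a match and 5.46% of gene-poor bins. Strong intergenic boundaries had a match in 71 of 295 cases, 24.1% (19.3 to 29.4%), and Weak ones in 77 of 996, 7.73% (6.15 to 9.57%). Seen the other way, 48.0% of the 148 boundaries with a match were Strong (39.7 to 56.3%) and 19.6% of the 1143 without (17.3 to 22.0%). Outside the group the same shares were 70.0% and 56.1%. A looser form of the consensus, with 4 of its 12 positions open to any base and so containing the main one, was near 50.3% of intergenic boundaries (47.6 to 53.1%) and 48.8% of gene-poor bins. Inside the 5 kb interval it was found in 16.5% of intergenic boundaries (14.5 to 18.6%) and 13.2% of bins.

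The match share was also lower farther from coding genes. It was 19.1% between 100 and 200 kb from a coding start (bins 8.07%), 10.8% from 200 to 500 kb (bins 5.39%), 6.92% from 500 to 1000 kb (bins 3.86%) and 4.38% beyond (7 of 160, interval 1.78 to 8.81%; bins 2.65%). The ratio to the bins of the same band was 2.37, 2.00, 1.79 and 1.65. In the farthest band the interval of the boundaries contained the share of the bins.

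Among 169 different matches within 10 kb of intergenic boundaries, the most frequent form was CCAGCAGAGGGC, with 22 (13.0%), which was also the most frequent inside gene-poor bins (218 of 1631, 13.4%). The form CCACTAGATGGC followed with 18 (10.7%, exact 95% interval 6.44 to 16.3%) against 5.95% in the bins. Of the 169 matches, 29 lay in soft-masked sequence, 17.2% (11.8 to 23.7%), and 19.5% of those in the bins did.

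Over all intergenic boundaries, matches more often pointed outward than inward on either side. Within 50 kb of the midpoints, the right side held 272 matches, of which 154 lay on the + strand, 56.6% (exact 95% interval 50.5 to 62.6%). On the left side 102 of 256 did, 39.8% (33.8 to 46.1%). The difference of 16.8 percentage points compares with 29.3 points around other autosomal boundaries and -0.43 points around gene-poor bins. It was 20.5 points around Strong and 13.1 points around Weak intergenic boundaries. Around Weak ones the + strand held 49.6% of matches on the right (41.1 to 58.2%) and 36.6% on the left (28.4 to 45.3%). No outward lean was seen on the right there, and whether the sides differ was not tested. Matches centred on the boundary, within 5 kb of its midpoint, numbered 6.43 per 100 intergenic boundaries and 2.31 per 100 gene-poor bins. Within 25 kb of the midpoint the strand difference was 11.2 points, with an interval from -0.35 to 22.4 that includes 0, and with the looser consensus it was 1.75 points (-1.32 to 4.82).

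**Figure D4:**
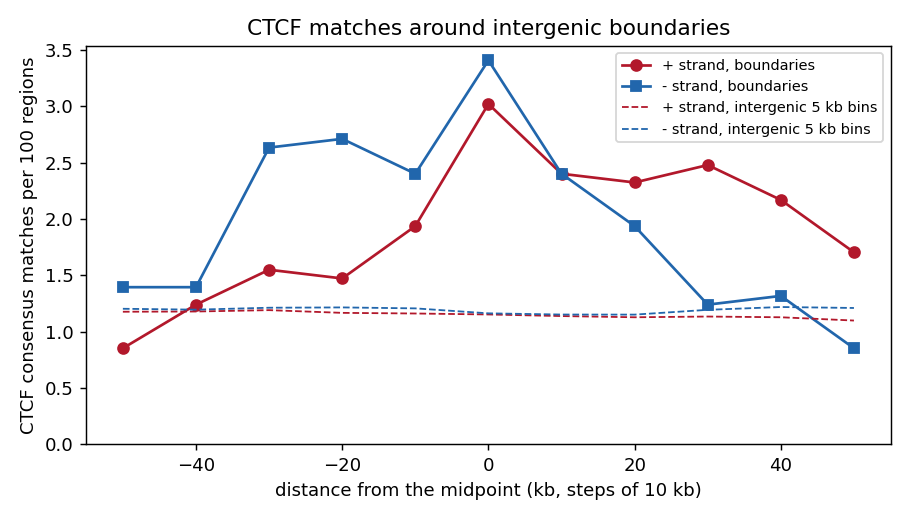
CTCF consensus matches per 100 regions in steps of 10 kb around the midpoints of 1291 intergenic boundaries (solid lines) and of all gene-poor 5 kb bins (dashed lines), by strand. Both strands peak at the midpoint, - strand matches are the more frequent ones from 50 to 10 kb on the left and + strand matches from 20 to 50 kb on the right.

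CpG islands, stretches rich in CG pairs that mark many gene starts, were rare near intergenic boundaries but more frequent than in gene-poor bins. An island of at least 500 bases lay within 10 kb of 20 boundaries, 1.55% (exact 95% interval 0.949 to 2.38%), where 0.717% of gene-poor bins had one. Boundaries with a coding start within 10 kb had one in 59.7% of cases. The rule leaves out coding starts, so the contrast with these follows in part from the choice. Of the 20 intergenic boundaries with an island, 8 were Strong. Scores of 2.04 and 2.00 belonged to the boundaries nearest to the starts of Gdi2, a regulator of Rab proteins, and Nrsn1, a neuronal membrane protein gene, on chromosome 13. These 2 were chosen after their values were seen.

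The starts of other annotated genes, all types combined, were about as common at intergenic boundaries as in the surrounding sequence. A gene start of any kind in GENCODE M21 lay within 10 kb of 161 of them, 12.5% (exact 95% interval 10.7 to 14.4%), against 14.1% of gene-poor bins. Processed pseudogenes, copies of messenger RNAs pasted into the genome, started near 93 (7.20% against 8.11%), genes of small nuclear RNA near 13 (1.01% against 0.943%) and microRNA genes near 9 (0.697% against 0.808%). The body of a lincRNA gene overlapped 65 boundaries, 5.03% (3.91 to 6.37%), against 6.89% of bins. RefSeq, a separate annotation of the same assembly, placed a lncRNA start within 10 kb of 64 boundaries (4.96% against 5.15% of bins) and a coding start within 10 kb of 6 (0.465%, interval 0.171 to 1.01%, against 0.358% of bins).

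The 3′ ends of coding genes were a different matter. Since every gene start is at least 100 kb away, a coding gene body that comes within 25 kb of such a boundary reaches it with its far end. This was so for 88 boundaries, 6.82% (exact 95% interval 5.50 to 8.33%), against 2.55% of gene-poor bins. Of these 88, 58 were Strong, 65.9% (55.03 to 75.7%), where 19.7% of the other 1203 were (17.5 to 22.1%). The boundaries beside gene ends had a median GC content of 43.1% against 38.5% for the rest and lay a median of 157 kb from a start against 366 kb. The part of GC and of distance in this was not tested. An example is the boundary that holds the Galnt17 sequence above. It lies in a gap of 0.0247 Mb between the bodies of Caln1, a neuronal calcium-binding protein gene, and Galnt17, which encodes an enzyme of protein glycosylation, and scored 1.69.

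The 10 highest-scored intergenic boundaries lay mostly close to the 100 kb limit. In 7 of the 10 the nearest coding start was under 150 kb away, and in 6 a gene body came within 50 kb. Among all intergenic boundaries the median distance to a start was 345 kb, and 12.1% had a gene body within 50 kb. Among Strong ones these values were 185 kb and 29.2%. The median GC content of the 10 was 44.3%, 4 had a CTCF match within 10 kb and 1 had it inside. The highest score, 2.72, belonged to the boundary on chromosome 1 at 30770001 to 30775000, 101.4 kb from the start of Phf3, a regulator of transcription elongation, and 29.8 kb from its body. On its other side the body of Gm597 is 1992 kb away, in a stretch without coding genes of 2.02 Mb in all. The second, also 2.72, lay on chromosome 2 at 3810001 to 3815000, between Fam107b and Frmd4a, a cell polarity scaffold whose start was 205 kb away. On chromosome 12 the boundary at 17830001 to 17835000 scored 2.46, 40.6 kb from the body of Hpcal1, a neuronal calcium sensor, and was followed by an interval of 3260 kb with no boundary. A score of 2.44 was given to a boundary 193 kb from the start of Spin1, which encodes a histone reader, and one of 2.29 to the boundary near Kcnmb2, a potassium channel subunit gene. The remaining 5 were nearest to Trim33 (2.18), Gata6 (2.18), Cobl (2.11), Smad2 (2.09) and Zmynd11 (2.08). Of these Gata6 encodes a factor of endoderm and heart, and Smad2 carries TGF-beta signals. The boundary near Zmynd11 was also 7.99 kb from the body of Chrm3, a muscarinic acetylcholine receptor gene.

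The 10 boundaries farthest from any coding start had low scores for the most part. They lay 2000 to 2598 kb away, 9 were Weak, none had a CTCF match within 10 kb, and their scores ran from 0.210 to 0.517. Of all intergenic boundaries 22.9% were Strong and 11.5% had a match, and beyond 1000 kb 5% and 4.38%. Counts this small do not set the 10 apart from these shares. The farthest was the boundary on chromosome 14 at 91290001 to 91295000, 2598 kb from the start of Pcdh9 and scored 0.214, in a stretch of 4.54 Mb between Pcdh20 and Pcdh9. Another boundary of that stretch, 135 kb further on, scored 0.300. Both genes encode protocadherins, adhesion proteins of neurons. Of the 10, 4 were in the stretch between Cntnap5b and Cdh20 on chromosome 1 and 2 in that between Olfm4 and Pcdh17 on chromosome 14.

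At the limit of the rule, the nearest members inside were a Strong boundary 100.5 kb from the start of Hira, a histone chaperone gene (score 1.77), and a Weak one 100.7 kb from that of Lrrc4c (0.246). A boundary just outside, 99.1 kb from the start of Tiam2, was Weak (0.221).

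Intergenic boundaries often stood in runs, which follows in part from a rule that selects whole gene-poor stretches. No share to be expected from the rule alone was computed. With no other boundary in between, 922 of 1291 (71.4%) had another intergenic boundary as a direct neighbour, and 369 stood alone. Runs of 5 or more numbered 59 and held 406 boundaries. Of boundaries standing alone 40.1% were Strong (exact 95% interval 35.1 to 45.3%), of those in runs of 2 to 4 20.7% (17.3 to 24.5%) and in runs of 5 or more 9.85% (7.13 to 13.2%). Distance from coding starts moved with this, with medians of 191 kb, 339 kb and 715 kb.

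Spacing was wider than elsewhere. The nearer neighbouring boundary was a median of 255 kb away (quartiles 170 and 378 kb), against 190 kb for other autosomal boundaries. The 666 intervals with an intergenic boundary at both ends had a median length of 355 kb, against 240 kb for 5103 intervals with none. Of the former, 580 held no coding gene start, 87.1% (exact 95% interval 84.3 to 89.5%), where 10.3% of the latter held none. The rule keeps coding starts at least 100 kb from both ends of the former, so this contrast follows in part from the choice. Intervals over 1 Mb made up 7.51% of the former and 1.47% of the latter.

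The longest run was 17 boundaries on chromosome 15, from 13910001 to 20340000, along a series of type II cadherin genes. It began between Cdh6 and Cdh9 with the single Strong boundary of the run (0.574), went on between Cdh9 and Cdh10 and ended between Cdh10 and Cdh12, 111.8 kb from the start of Cdh12. The 16 Weak boundaries scored from 0.213 to 0.405. GC content in the 17 intervals lay between 30.7 and 38.7%, and 2 had a CTCF match within 10 kb. Adjacent boundaries of the run were 140 to 785 kb apart.

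Boundaries fell in 704 stretches between neighbouring coding genes, of 1820 that hold gene-poor bins. In 445 stretches there was 1 intergenic boundary, and 52 stretches with 5 or more held 324 (25.1%). The most, 12, lay between Tenm3, a teneurin gene of synaptic adhesion, and Aga, a lysosomal enzyme gene, over 4.67 Mb of chromosome 8. All 12 were Weak, with scores from 0.203 to 0.392, and none had a CTCF match within 10 kb. Of all 1291 intergenic boundaries 996 were Weak, and 11.5% had a match. Between Cntnap5b and Cdh20 there were 10 in 4.28 Mb, 9 of them Weak (0.210 to 0.413). The exception was a Strong boundary at 103895001 to 103900000 of chromosome 1, scored 1.78 and 871 kb from the start of Cdh20, without a CTCF match within 10 kb. 3 further stretches on chromosome 1 held 9 each, between Dsel and Cntnap5a, Kcnt2 and Cdc73, and Brinp3 and Pla2g4a.

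The stretch between Kcnj2, a potassium channel gene, and Sox9, a master gene of cartilage and testis, is a textbook case of a boundary between regulatory domains. It spans 1.71 Mb of chromosome 11 and held 3 intergenic boundaries. The first, at 111535001 to 111540000, was Strong with a score of 2.04, 461 kb from the body of Kcnj2 and 1245 kb from Sox9. Its sequence with the CTCF match is shown above, and a second match lay within 10 kb. The other 2, 570 kb and 255 kb from the start of Sox9, were Weak (0.324 and 0.214) with no match within 10 kb.

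**Figure D5:**
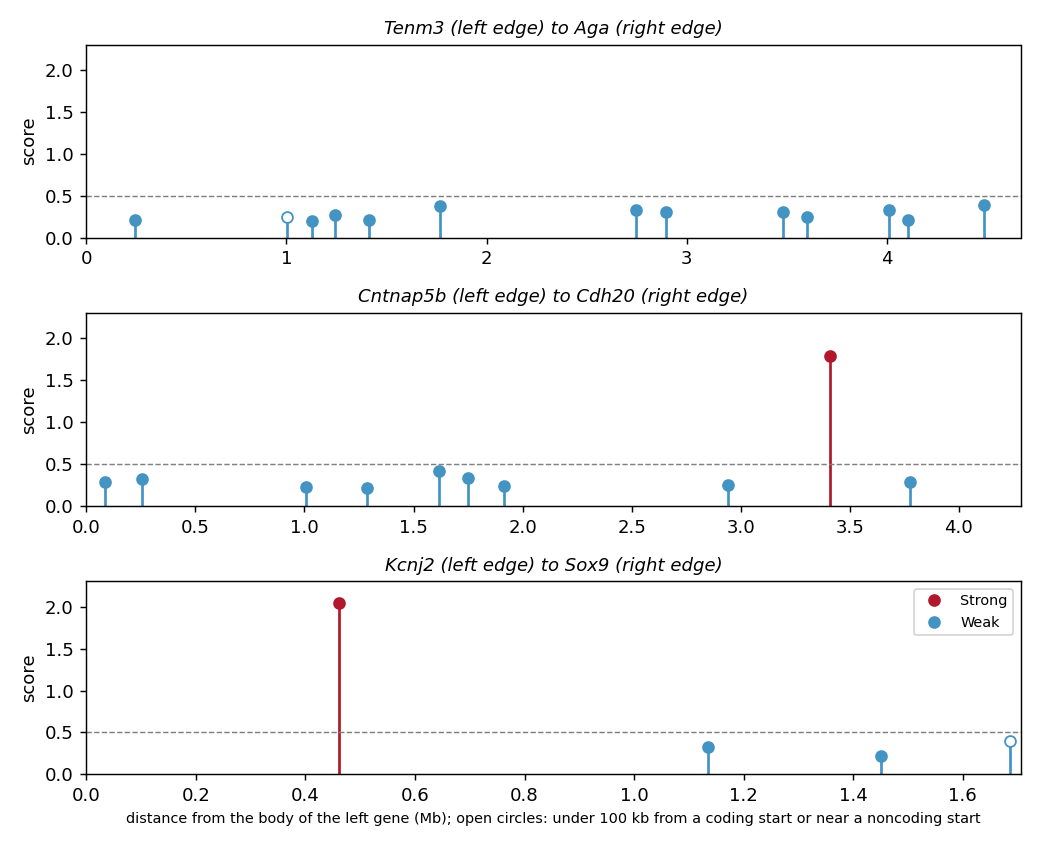
Scores of all boundaries in 3 stretches between neighbouring coding genes, by distance in Mb from the body of the left gene; filled circles are intergenic boundaries, open circles are boundaries nearer than 100 kb to a coding start or near a noncoding start, and the dashed line marks a score of 0.5. The stretch from Tenm3 to Aga holds Weak boundaries only, and those from Cntnap5b to Cdh20 and from Kcnj2 to Sox9 hold 1 Strong boundary each, scored 1.78 and 2.04.

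Flanking genes were compared with 8 lists of genes, counting a boundary for a list when a coding gene at either end of its stretch belonged to it. Developmental transcription factor genes flanked 107 boundaries, 8.29% (exact 95% interval 6.84 to 9.93%), where they flank 8.29% of gene-poor bins. Cadherin and protocadherin genes flanked 109, 8.44% (6.98 to 10.1%) against 8.00% of bins. Axon guidance genes flanked 57 (4.42% against 4.76%) and genes of leucine-rich repeat adhesion proteins 44 (3.41% against 3.49%). For each of these 4 lists the share of the bins lay within the interval of the boundaries. Boundaries flanked by developmental transcription factor genes were Strong in 28 of 107 cases (26.2%), where 22.9% of all intergenic boundaries were. With axon guidance genes 12 of 57 were Strong (21.1%) and with cadherin genes 15 of 109 (13.8%). With leucine-rich repeat genes 3 of 44 were (6.82%).

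Some of the highest-scored boundaries of these lists were far inside deserts. On chromosome 7 a boundary 698 kb from the start of Arrdc4 and 904 kb from the body of Nr2f2, a nuclear receptor gene, scored 1.99. On chromosome 13 a boundary 516 kb from the start of Irx1, a homeobox gene, scored 1.91. The boundary near Zfp536 and Tshz3 on chromosome 7, shown above, scored 1.89. On chromosome 15 one between Cdh18 and Basp1, 896 kb from the nearest start, scored 1.85. For axon guidance genes the highest were a boundary between Tecrl and the ephrin receptor gene Epha5 (1.78), the one between Manea and Epha7 shown above (1.65) and one 145.8 kb from the start of Robo1, a receptor of Slit proteins (1.38).

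Genes of olfactory neurons flanked about the share of boundaries that gene-poor sequence gives. Of 35 listed genes on the autosomes 6 flanked an intergenic boundary, 17 boundaries in all, 1.32% (exact 95% interval 0.769 to 2.10%) against 0.945% of gene-poor bins, a share inside that interval. The 2 Strong ones lay between Ncam1, a neural adhesion gene, and Rpl10-ps3 (0.737) and between Clint1 and Ebf1, a transcription factor of these neurons (0.615). Weak ones lay in stretches that end at Kirrel3, Nrp1 and Ncam2, genes of axon sorting, guidance and adhesion. Scores of 0.400 and 0.492 were found 103 kb and 1348 kb from the body of Kirrel3. The highest in the stretches of Nrp1 and Ncam2 scored 0.456 and 0.353, at 726 kb and 158 kb from these genes. The boundaries scored 0.492 and 0.456 lay nearer to the gene at the other end, Ets1 (380 kb) and Pard3 (20.2 kb). Olfactory receptor genes, which lie in dense clusters, flanked 4 boundaries (0.310% against 0.408% of bins), and vomeronasal receptor genes none of 1291, which allows a share of up to 0.232% by the floor of 3 counts and 0.285% by the exact interval, where they flank 0.198% of bins. Ribosomal protein genes flanked 9 boundaries (0.697% against 0.638% of bins), all of them Weak, the class of 996 of the 1291 intergenic boundaries.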

How the data were processed

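One boundary list was used, without header, of 5 kb intervals with a class and a strength score; the authors made it from a contact matrix of both replicates combined on GRCm38, per the design text of the series and the submitters' processing notes. With the deposited score, boundaries were described, ranked and split. Its formula, the caller and the window were not given in the sources used here, and the depth is unknown. Genes came from GENCODE M21 and sequence from the RefSeq copy of GRCm38.p6. Distances run from interval midpoints to gene starts, 1 start per gene. Gene-poor bins are a full count, members included, of 5 kb bins without unknown bases that meet the same rule. CpG islands needed 500 bases, 55% GC and an observed over expected ratio of 0.65 in windows of 200 bases. Scripts (Python 3.11.15, scipy 1.17.1) were tested on simulated data. The members and lists were chosen with earlier results of these data known. Named were the 10 farthest and 10 highest-scored boundaries, the 8 highest-scored with a match inside (chromosome 18 left out), the stretches with most members and up to 6 highest-scored per gene list; other names were chosen after their values were seen, and 1 boundary just outside the distance limit is not reported here. Alternatives covered distance limits, noncoding starts, receptor clusters, class, match window, consensus, repeats and annotation.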

Additional observations from a re-analysis of the deposited data

How the results depend on the processing

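No paired analysis was possible because the list holds 1 value per boundary from both replicates combined, and for the same reason no replicate could be left out. Of 62 recomputed values, 36 stayed within the interval of the reported value (counts within 1.5 times) and 26 moved. Only the strand difference could change sign, and it stayed positive in each setting that recomputed it. Moving the distance limit to 50 kb gave 2.16 boundaries per Mb, 33.5% Strong, a median score of 0.338, matches near 14.5% of boundaries and 6.48% of bins, 39.5% GC and 235 kb to the next boundary. At 200 kb the Strong share was 14.6%, the median score 0.281, the match shares 8.49% and 4.49% and GC 38.1%. Without the condition on noncoding starts 5.72% of bins had a match, and with a soft-masked share under 60% it was 5.83%. Strong boundaries alone numbered 295, 0.419 per Mb, with matches near 24.1%, 41.5% GC and 275 kb to the next boundary. Matches inside the interval gave 2.94% and 1.14%, within 25 kb 19.9% and 11.3%, and the looser consensus 50.3% and 48.8%, with a strand difference of 1.75 points. The member share was above that of the bins in all 8 settings that changed or repeated both. With the looser consensus the share of the bins lay within the interval of the boundaries, 47.6 to 53.1%. The settings are not independent, and the one without receptor clusters kept 1290 of the boundaries. RefSeq genes in place of GENCODE, an alternative chosen after seeing the data, gave 1261 boundaries, 1182 of them shared, and all 9 values stayed within their intervals. Depth could not be assessed.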

Other observations

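A few boundaries stood out from their surroundings and were chosen after their values were seen. Beyond 1000 kb from any coding start only 8 of 160 boundaries were Strong. The highest-scored, 1.38, lay on chromosome 2 at 8630001 to 8635000, between Celf2, a splicing regulator gene, and Gata3, and had a CTCF consensus match within 10 kb. The next was 1015 kb from the start of Zeb2, a transcription factor gene of neural crest, in the stretch to Acvr2a, and scored 1.08. A boundary between Pcdh17 and Diaph3 scored 0.954, with the nearest boundaries 1125 and 1665 kb away on either side. The one between Serpinb8 and Cdh7 on chromosome 1 (0.797) had its neighbours 1355 and 1775 kb away and a match within 10 kb. The other 4 scored 0.517 to 0.615, had no match within 10 kb and were nearest to the starts of Epha7, Stim2, Brinp3 and Pik3c3.

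Chromosome 17 had no CTCF consensus match near any of its 33 intergenic boundaries, the lowest share of the 19 autosomes, while 5.86% of its gene-poor bins had one. The exact interval of the share of its boundaries, 0 to 10.6%, contains that of the bins, so no difference between them was shown. Chromosome 8 had the lowest Strong share, 8.97%, and the lowest median score, 0.260, where its other boundaries had 57.5% Strong and a median of 0.610.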
